A study of Canis lupus familiaris with 12 samples.

Results

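The nuclear pore complex is the channel in the nuclear envelope through which proteins and RNA pass between the nucleus and the cytoplasm. Its scaffold is built from ring-shaped subcomplexes of nucleoporins, and its channel is lined by nucleoporins with phenylalanine-glycine (FG) repeats. Carrier proteins bring cargo through it. Importins carry proteins into the nucleus and exportins carry proteins and RNA out, and the small GTPase Ran, loaded with GTP in the nucleus by RCC1 and driven to hydrolyse it in the cytoplasm by RANGAP1, gives the transport its direction.

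Here 52 nuclear pore and nuclear transport genes, of 15115 named genes on the array, were followed in C2 cells, a line from a canine mast cell tumour. They were all genes whose symbol in the array's gene table begins with NUP, KPNA, KPNB, IPO or XPO and a number, together with XPOT, TNPO1, TNPO2, TNPO3, CSE1L, RANBP1, RANBP2, RANGAP1, RCC1 and NUTF2. RAN belonged to the same rule but was not analysed here, since no probe set carried that symbol. The rule names genes and uses no measured value, but it was set with earlier results of these data known. C2 cells carry a tandem duplication in the juxtamembrane part of KIT, the stem cell factor receptor, which makes the kinase permanently active. The cells were cultured with 100 nM masitinib, an inhibitor of KIT, of the platelet-derived growth factor receptors and of Src family kinases, and RNA was hybridised to Affymetrix Canine Genome 2.0 arrays. There were 3 arrays from C2 cells before treatment (0 h) and 3 each after 12, 24 and 72 h with the drug, 12 in all. All were cultures of the same cell line, so the p-values measure the spread between cultures and not between dogs. No untreated cultures of the later times were analysed here, and the effect of the drug and that of time in culture cannot be told apart.

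All values below are deposited log2 expression values, so that a difference of 1 is a 2-fold difference. Each gene was read from its brightest probe set, and the 52 genes had 118 probe sets in all. A gene was taken to have risen or fallen when limma's moderated test gave an adjusted p under 0.001 and the change was more than 1.5-fold. Of the 52 genes, 48 were outside the dimmest 40% of probe sets by their mean over all arrays. The array medians ranged from 5.89 to 5.95, and the difference between the 3′ and 5′ probe sets of GAPDH, a sign of RNA quality, lay between 0.23 and 0.51. At 12 h it was 0.33, 0.27 and 0.23, below all of the untreated arrays (0.41, 0.35 and 0.43), and at 24 and 72 h it overlapped with them. For actin the same difference was larger, between 0.96 and 1.68, and the arrays of each treated time overlapped with those of 0 h. The part of these differences in the results, at 12 h and later, was not tested. Of the mast cell markers, 11 of 13 were measured, and their mean level lay between 11.43 and 11.53 at 0 h, 11.84 and 11.91 at 12 h, 12.16 and 12.26 at 24 h and 12.03 and 12.26 at 72 h. Of the 11, 1, 6 and 4 rose at 12, 24 and 72 h, beside 4.26%, 8.01% and 8.73% of all named genes. SLC18A2, named after its values were seen, changed by -0.52, -0.04 and -0.55 and did not pass. The mean of 5 of 5 endothelial markers moved with time as well, with 6.02 to 6.05 at 0 h, 5.99 to 6.07 at 12 h, 6.58 to 6.88 at 24 h and 7.47 to 7.54 at 72 h. The movement was that of PECAM1 (means of 3.87, 4.06, 5.54 and 8.15) and KDR (9.24, 9.11, 10.91 and 11.78), both named after their values were seen, while the means of CDH5, VWF and TEK were 7.28, 5.76 and 4.52 at 72 h, against 7.06, 5.74 and 4.26 at 0 h. The mean of 4 of 5 epithelial markers was 5.77 to 5.82, 6.12 to 6.36, 5.91 to 5.95 and 5.17 to 5.25 at these times. Its members went different ways, since at 72 h EPCAM (-1.54) and KRT18 had fallen and CDH1 had risen (0.63). The means of the marker lists of T cells, B cells, macrophages and fibroblasts lay between 4.60 and 6.05 on every array. Within them, CD3D of the T cell list fell (-1.11) and CD79A of the B cell list rose (0.64) at 72 h. These single markers were named after their values were seen. The part of these marker changes in the results below was not tested. In RNA of whole cultures, fewer cells that express a gene and less of its RNA per cell cannot be told apart.

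After masitinib the transport genes were mostly lower. At 12 h, 18 of the 52 genes had fallen and 0 had risen by limma, against 6.30% of all named genes fallen and 4.26% risen. At an unadjusted p under 0.05, 39 were lower and 1 was higher at 12 h, beside 3121 lower and 2987 higher of the 15115 named genes. The analysis of variance used in the study's methods gave 17 falls and 0 rises at 12 h, beside 858 and 562 of the 15115. At 24 h, 30 genes had fallen and 1 had risen, where 10.0% of all named genes fell and 8.01% rose. At 72 h, 23 had fallen and 1 had risen, with 11.0% and 8.73% of all named genes. The analysis of variance gave 30 falls at 24 h and 20 at 72 h, beside 1442 and 1584 of the 15115 named genes. The median change of the 52 genes came to -0.43, -0.63 and -0.54 over the 3 times, beside medians of 0.01, 0.03 and 0.02 over all named genes. These 3 comparisons share the 0 h arrays. The arrays of the treated and the untreated cells did not overlap for 42, 46 and 43 genes over the 3 times, whereas 45.0%, 53.0% and 52.7% of all named genes did not overlap.

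**Figure D1:**
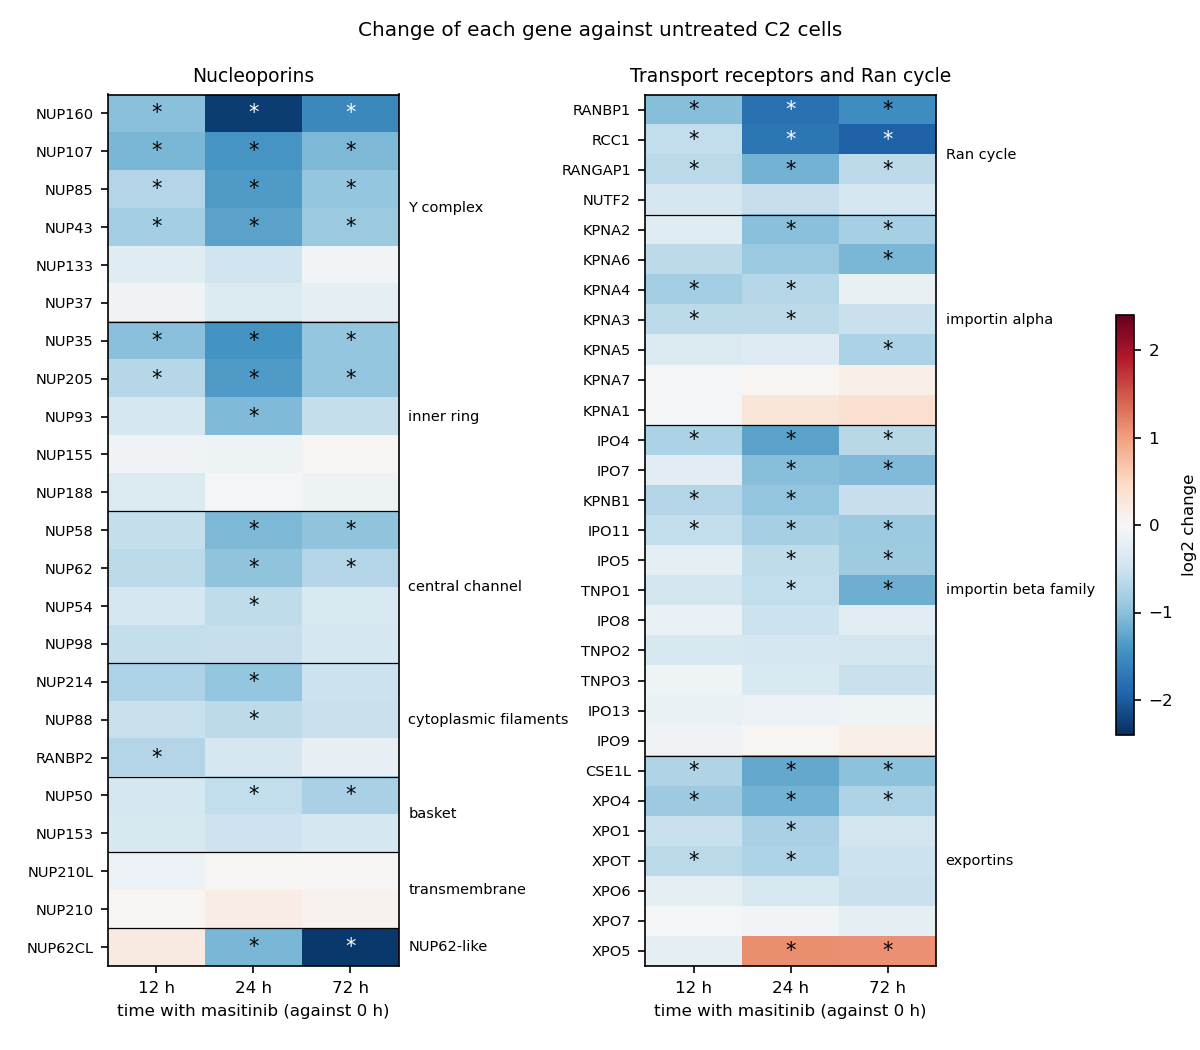
Log2 change of the 52 genes at 12, 24 and 72 h with masitinib against untreated C2 cells (0 h), coloured from blue (lower with masitinib) to red (higher), with genes grouped by role and stars on changes that passed the test. Blue cells prevail in both panels, 30 genes have a star for a fall at 24 h, and XPO5 is the only gene with stars on red.

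Of the 52 genes, 33 fell at 1 or more of the times and 18 passed the test at none. A group of 13 had fallen at all 3 times, namely CSE1L, IPO4, IPO11, NUP35, NUP43, NUP85, NUP107, NUP160, NUP205, RANBP1, RANGAP1, RCC1 and XPO4. A further 8 passed the test at 24 and 72 h but not at 12 h (IPO5, IPO7, KPNA2, NUP50, NUP58, NUP62, NUP62CL and TNPO1). The reverse, falls at 12 and 24 h that no longer passed at 72 h, was seen in 4 genes (KPNA3, KPNA4, KPNB1 and XPOT). A fall at 24 h only was found for 5 genes (NUP54, NUP88, NUP93, NUP214 and XPO1), at 72 h only for KPNA5 and KPNA6, and at 12 h only for RANBP2. These names follow from the calls and were chosen after the values were seen. They describe the brightest probe set of each gene, and others gave wider falls or smaller changes. The other probe sets of KPNA3 changed by -0.07 and -0.17 at 12 h and by -0.29 and -0.34 at 24 h (SE of 0.39 and 0.15), and did not pass. A dimmer probe set fell at all 3 times in NUP54 (-0.61, -0.80 and -0.62), NUP88 (-0.75, -1.03 and -0.94), XPO1 (-0.67, -1.14 and -0.88), IPO5 and NUP58, and 3 of the 6 probe sets of NUP93 fell at 72 h (-0.68, -0.75 and -0.85). Among the 18 genes that passed at no time, a dimmer probe set of XPO6 fell at 24 h (-0.62) and 72 h (-0.77). Dimmer probe sets of NUP98 (-0.75), NUP133 (-0.80) and NUP155 (-0.59) fell at 24 h. Of the 13 genes that fell throughout, 5 lost their 12 h fall with the mean of all probe sets, with RCC1 at -0.58, RANGAP1 at -0.33, NUP205 at -0.35, NUP85 at -0.42 and XPO4 at -0.58. The lowest mean of the 4 times lay at 24 h for 28 of the 52 genes (53.8%), compared with 17.3% of all named genes, and the highest lay at 0 h for 44 genes (84.6%), compared with 30.4%. Among the 33 that fell at any time, 66.7% were lowest at 24 h, where the share was 39.1% among the 2054 named genes that fell at any time.

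The quantile step in the deposited values holds the distribution of each array nearly constant. The level of the poly-A RNA controls, bacterial transcripts spiked into the samples, lay between 7.61 and 7.85 on the arrays of 0 h. It lay between 7.94 and 8.03 at 12 h, 8.16 and 8.39 at 24 h and 8.04 and 8.24 at 72 h. These controls were higher on the treated arrays by 0.24, 0.51 and 0.39 at 12, 24 and 72 h. Scaling to them lowers every gene by that amount, and then 33, 45 and 41 of the 52 genes fell at 12, 24 and 72 h, with 12.4%, 33.0% and 24.5% of all named genes. Of the 42 control probe sets, 6 (those of Trp) read only 2.91 to 4.24 on all arrays. Without them the shifts were 0.29, 0.60 and 0.47 and the falls numbered 33, 46 and 43, with 14.3%, 46.8% and 30.7% of all named genes, a choice made after seeing the data. The median change of the 52 genes minus that of all named genes was -0.44, -0.66 and -0.56, and such a shift of whole arrays leaves it as it is.

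The Ran cycle genes held some of the deepest falls. RCC1, the exchange factor that loads Ran with GTP on chromatin, had values of 9.19, 9.03 and 8.96 at 0 h, 8.43, 8.41 and 8.58 at 12 h, 7.41, 7.37 and 7.18 at 24 h and 7.20, 6.97 and 7.19 at 72 h. The times did not overlap except for 24 and 72 h, and RCC1 at 72 h was 3.84-fold lower than at 0 h (log2 change -1.94 ± 0.09, SE, adjusted p = 2.6e-09). The fall at 12 h was near the fold threshold (-0.59, adjusted p = 0.000262). It was lost when untreated replicate 1 (-0.53) or replicate 2 (-0.61, adjusted p = 0.00117) was left out, and also without 12 h replicate 1 (-0.57) or replicate 2 (-0.56). The analysis of variance (adjusted p = 0.00113) and a limma fit of only the 0 and 12 h arrays (adjusted p = 0.00101) lost it as well.

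RANBP1, a cytoplasmic Ran-binding protein that helps RANGAP1 release Ran from its carriers, had 13.02, 13.03 and 13.01 at 0 h. It had 12.03, 11.92 and 12.04 at 12 h, 11.27, 11.16 and 11.25 at 24 h and 11.46, 11.59 and 11.56 at 72 h. All 9 treated arrays were below the untreated ones, and the lowest were those of 24 h (3.47-fold lower, -1.79 ± 0.06, SE, adjusted p = 1.98e-10). RANGAP1, which activates the GTPase of Ran at the cytoplasmic side of the pore, had 9.12, 9.16 and 9.14 at 0 h, 8.49, 8.53 and 8.49 at 12 h, 8.04, 7.99 and 7.99 at 24 h and 8.44, 8.48 and 8.62 at 72 h. It was lowest at 24 h (-1.14 ± 0.06, SE), and its 12 and 72 h arrays overlapped. Of its 9 probe sets, 4 fell at 24 h while the other 5 changed by between -0.32 and 0.20. With the mean of all 9 its changes were -0.33, -0.55 and -0.36 at 12, 24 and 72 h, which no longer passed the fold threshold. NUTF2, which returns Ran to the nucleus, stayed short of 1.5-fold, with changes of -0.41, -0.56 and -0.42 and adjusted p of 0.000115, 3.62e-06 and 5.35e-05.

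**Figure D2:**
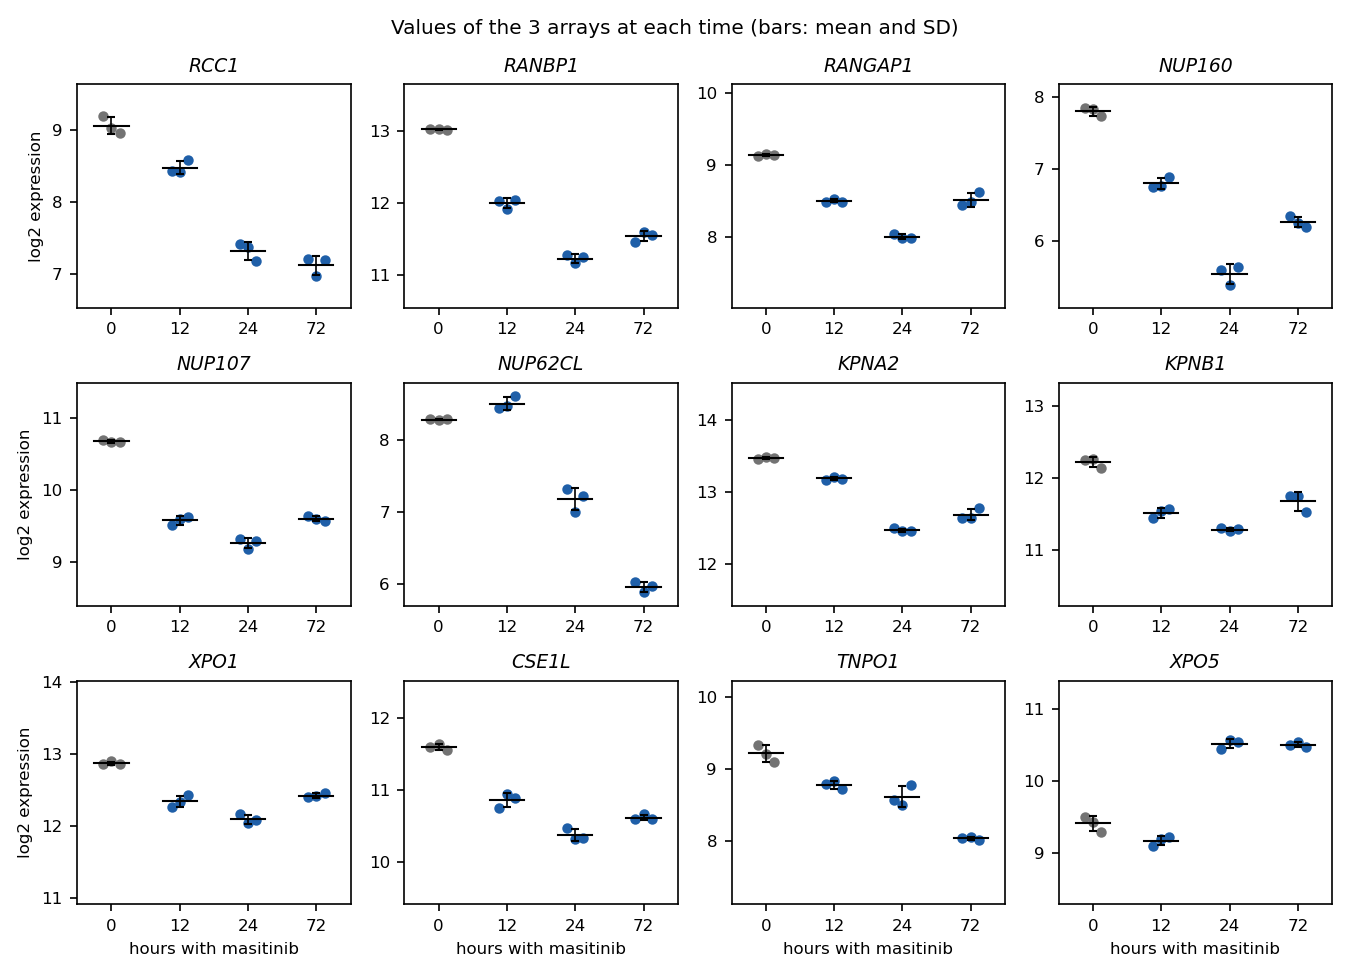
Log2 expression on each array (points) of 12 pore and transport genes at 0, 12, 24 and 72 h with masitinib, with the mean and SD of 3 arrays at each time, each panel spanning the same range. Most genes are lowest at 24 h, RCC1, NUP62CL and TNPO1 are lowest at 72 h, and XPO5 is higher at 24 and 72 h than at 0 h.

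The Y complex, which forms the outer rings of the pore scaffold, had 6 members among the 52 genes, and the same count of 4 fell at 12, 24 and 72 h. They were NUP160, NUP107, NUP85 and NUP43, the last chosen after its values were seen. Members of the complex with other names are not in this count. SEH1L, 1 of these, is in the list of pore genes with other names below. It changed by -0.47 at 12 h and passed the test at no time. The median change of the 6 genes was -0.76, -1.32 and -0.91 at the 3 times. NUP160 showed the largest fall of all 52 genes at 24 h. Its values were 7.85, 7.84 and 7.74 at 0 h, 6.76, 6.77 and 6.89 at 12 h, 5.60, 5.39 and 5.65 at 24 h and 6.35, 6.26 and 6.20 at 72 h. No 2 times overlapped, and the 24 h level was 4.81-fold below that of 0 h (-2.27 ± 0.08, SE, adjusted p = 2.26e-10). Its second probe set, which was dimmer, fell by 0.98, 1.46 and 1.24 on the log2 scale. NUP107 had 10.70, 10.67 and 10.66 at 0 h, 9.51, 9.59 and 9.63 at 12 h, 9.32, 9.18 and 9.29 at 24 h and 9.64, 9.59 and 9.57 at 72 h. It had the largest fall of the 52 genes at 12 h (2.14-fold lower, -1.10 ± 0.06, SE, adjusted p = 3.49e-08).
NUP85 was 2.54-fold lower at 24 h (-1.35 ± 0.07, SE), and at 72 h it was 1.91-fold lower. NUP133, another scaffold member of the complex, did not pass the test, with changes of -0.29, -0.47 and -0.06. At 24 h its adjusted p was 0.000336 and its difference was 1.39-fold. Its other probe set fell at 24 h (-0.80, adjusted p = 1.05e-06), and the mean of both passed as well (-0.64).

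The inner ring, which lies between the outer rings and anchors the channel, had 5 members measured, of which 2, 3 and 2 fell at 12, 24 and 72 h. NUP35 had 11.52, 11.55 and 11.52 at 0 h, 10.50, 10.55 and 10.49 at 12 h, 10.15, 10.01 and 10.09 at 24 h and 10.66, 10.52 and 10.61 at 72 h. Its level was 2.02-fold lower at 12 h and 2.72-fold lower at 24 h (-1.44 ± 0.06, SE). NUP205, a large scaffold nucleoporin, averaged 10.03 ± 0.03 at 0 h, 9.35 ± 0.07 at 12 h, 8.68 ± 0.07 at 24 h and 9.08 ± 0.02 at 72 h (SD, n = 3 each). All 4 times were apart, and the 24 h change was -1.35 ± 0.06 (SE, adjusted p = 1.7e-09). NUP155 had changes of -0.08, -0.12 and 0.03, and none of these passed. Its second probe set, with a mean of only 3.93, fell at 24 h (-0.59, adjusted p = 0.000503).

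Among the FG nucleoporins of the central channel none of 4 passed at 12 h by limma or by the analysis of variance, although all 4 were lower at an unadjusted p under 0.05. At 24 h 3 had fallen and at 72 h 2. NUP58 had 8.84, 8.89 and 8.88 at 0 h, 8.28, 8.28 and 8.32 at 12 h, 7.84, 7.79 and 7.78 at 24 h and 7.99, 7.86 and 7.89 at 72 h, and was 2.10-fold lower at 24 h. Its 12 h change of -0.58 missed the fold threshold narrowly and reached it without untreated replicate 1 or without 12 h replicate 3 (-0.59 each). NUP54, a partner of NUP58 and NUP62 in the same subcomplex, passed on its brightest probe set at 24 h only (-0.61 ± 0.07, SE), and this was lost without untreated replicate 1 (-0.58) or 24 h replicate 2 (-0.55). All 3 of its probe sets fell at 24 h, and 1 of them also at 12 and 72 h.
On the cytoplasmic filaments, where exported cargo is released, RANBP2 was lowest at 12 h. It had 10.38, 10.35 and 10.34 at 0 h, 9.59, 9.62 and 9.77 at 12 h, 10.00, 9.93 and 9.95 at 24 h and 10.20, 10.13 and 10.17 at 72 h. Only the 12 h change passed (-0.70 ± 0.06, SE, adjusted p = 1.81e-06). NUP88 passed on its brightest probe set at 24 h only (-0.62), a change that was -0.58 without 24 h replicate 3. The mean of its 3 probe sets passed at 12 h (-0.72) and 72 h (-0.85) too.

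At the nuclear basket, NUP50 fell at 24 h (-0.60) and 72 h (-0.78 ± 0.08, SE). The 24 h call was lost without untreated replicate 1 (-0.54) or 24 h replicate 2 (-0.58). NUP153, the other basket nucleoporin among the 52 genes, changed by -0.38, -0.50 and -0.43 and stayed under 1.5-fold. The transmembrane nucleoporins NUP210 and NUP210L read between 3.64 and 4.83 on all arrays, within the dimmest 40% of probe sets, and neither passed the test at any time by limma or the analysis of variance, with 0 of 2 at an unadjusted p under 0.05 against 0 h.
NUP62CL, a gene related to NUP62 that stands outside these subcomplexes, had 8.28, 8.27 and 8.28 at 0 h, 8.44, 8.46 and 8.60 at 12 h, 7.31, 7.00 and 7.21 at 24 h and 6.02, 5.88 and 5.97 at 72 h. It showed the largest fall of the 52 genes at 72 h, 4.99-fold (-2.32 ± 0.08, SE, adjusted p = 1.65e-10). Its 12 h value was higher by 0.22 (adjusted p = 0.0545) and turned to -0.02 when scaled to the poly-A controls.

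The importin alpha genes encode the adaptors that recognise the nuclear localisation signal of a cargo. Of the 7 members, 2, 3 and 3 fell at 12, 24 and 72 h, but not the same ones at each time. By the analysis of variance the counts were 2, 3 and 1. KPNA2 had 13.46, 13.49 and 13.47 at 0 h, 13.17, 13.21 and 13.18 at 12 h, 12.49, 12.45 and 12.45 at 24 h and 12.64, 12.64 and 12.77 at 72 h. All of the treated arrays lay below the untreated ones, and the change passed at 24 h (2.01-fold lower, -1.01 ± 0.06, SE) and 72 h (-0.79), but not at 12 h (-0.29). KPNA6 had 7.40, 7.45 and 7.56 at 0 h, 6.91, 6.79 and 6.81 at 12 h, 6.96, 6.67 and 6.09 at 24 h and 6.52, 6.01 and 6.57 at 72 h. It fell at 72 h (-1.10 ± 0.19, SE, adjusted p = 0.000352), with a wide spread between arrays. This call was lost without any 1 of the untreated arrays (-1.13, -1.11 and -1.05) or without 72 h replicate 2 (-0.92, adjusted p = 0.0018), and by the analysis of variance (adjusted p = 0.00208).
KPNA1 was the only importin alpha with a positive change at 24 h and 72 h that was outside the spread of the untreated arrays, with 0.29 and 0.38 (adjusted p = 0.00552 and 0.000758). It stayed under 1.5-fold, and the changes were -0.22 and -0.02 when scaled to the poly-A controls.

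The importin beta family holds the carriers themselves. Of 11 genes, 3, 6 and 5 fell at 12, 24 and 72 h, and none rose by limma or the analysis of variance, with 0 higher than at 0 h at an unadjusted p under 0.05. KPNB1, which carries importin alpha and its cargo, had 12.25, 12.27 and 12.14 at 0 h, 11.44, 11.54 and 11.57 at 12 h, 11.30, 11.26 and 11.29 at 24 h and 11.75, 11.75 and 11.53 at 72 h. It fell at 12 h (-0.71, or -0.56 and short of the threshold with the mean of its 3 probe sets) and 24 h (-0.94 ± 0.07, SE), and at 72 h the difference was 1.46-fold (-0.55), which became a call without untreated replicate 3 (-0.59).
IPO7, which imports ribosomal proteins, had 10.14, 10.02 and 9.96 at 0 h, 9.56, 9.89 and 9.91 at 12 h, 9.09, 8.96 and 9.01 at 24 h and 9.11, 8.95 and 8.89 at 72 h. Its fall came between 12 and 24 h, and its 24 and 72 h arrays overlapped. TNPO1, which imports RNA-binding proteins, instead had its lowest values at 72 h, with 9.33, 9.21 and 9.10 at 0 h, 8.79, 8.83 and 8.72 at 12 h, 8.57, 8.49 and 8.78 at 24 h and 8.04, 8.05 and 8.01 at 72 h. It was 2.26-fold lower at 72 h (-1.18 ± 0.08, SE, adjusted p = 8.63e-08). Its call at 24 h (-0.60) was lost without untreated replicate 1 (-0.55), 24 h replicate 1 (-0.58) or 24 h replicate 2 (-0.54). IPO9 changed by -0.09, 0.04 and 0.14 and did not pass.

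The exportins carry cargo out of the nucleus. Of 7 genes, 3, 4 and 2 fell at 12, 24 and 72 h, and XPO5 rose at 24 and 72 h. CSE1L, which returns importin alpha to the cytoplasm, had 11.60, 11.65 and 11.56 at 0 h, 10.76, 10.95 and 10.90 at 12 h, 10.48, 10.32 and 10.34 at 24 h and 10.60, 10.67 and 10.60 at 72 h. It was 2.33-fold lower at 24 h (-1.22 ± 0.07, SE, adjusted p = 1.49e-08), and 4 of its 5 probe sets fell at that time. XPO1, the main exporter of proteins with a leucine-rich export signal, had 12.85, 12.89 and 12.85 at 0 h, 12.26, 12.33 and 12.42 at 12 h, 12.16, 12.04 and 12.07 at 24 h and 12.39, 12.41 and 12.45 at 72 h. Its changes were -0.53, -0.78 and -0.45, and on this probe set the 24 h change alone was over 1.5-fold (adjusted p = 3.01e-07). The mean of its 2 probe sets passed at 12 h (-0.60) and 72 h (-0.67) as well. XPO4 was 1.84-fold lower at 12 h (-0.88 ± 0.09, SE), or -0.58 with the mean of its 2 probe sets, which did not pass.
XPO5, which exports precursor microRNAs, was the only one of the 52 genes that rose. It had 9.49, 9.43 and 9.29 at 0 h, 9.09, 9.19 and 9.22 at 12 h, 10.44, 10.56 and 10.54 at 24 h and 10.50, 10.53 and 10.46 at 72 h. The 24 and 72 h arrays were all above those of 0 and 12 h. The rise was 2.16-fold at 24 h (1.11 ± 0.07, SE, adjusted p = 3.16e-08) and 2.14-fold at 72 h (1.09 ± 0.07, SE, adjusted p = 3.25e-08), and with the poly-A scaling it was 0.60 and 0.70. Scaled to the poly-A controls without Trp, the 24 h change was 0.51 and no longer passed. It rested on 1 probe set, the only one of this gene.

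**Figure D3:**
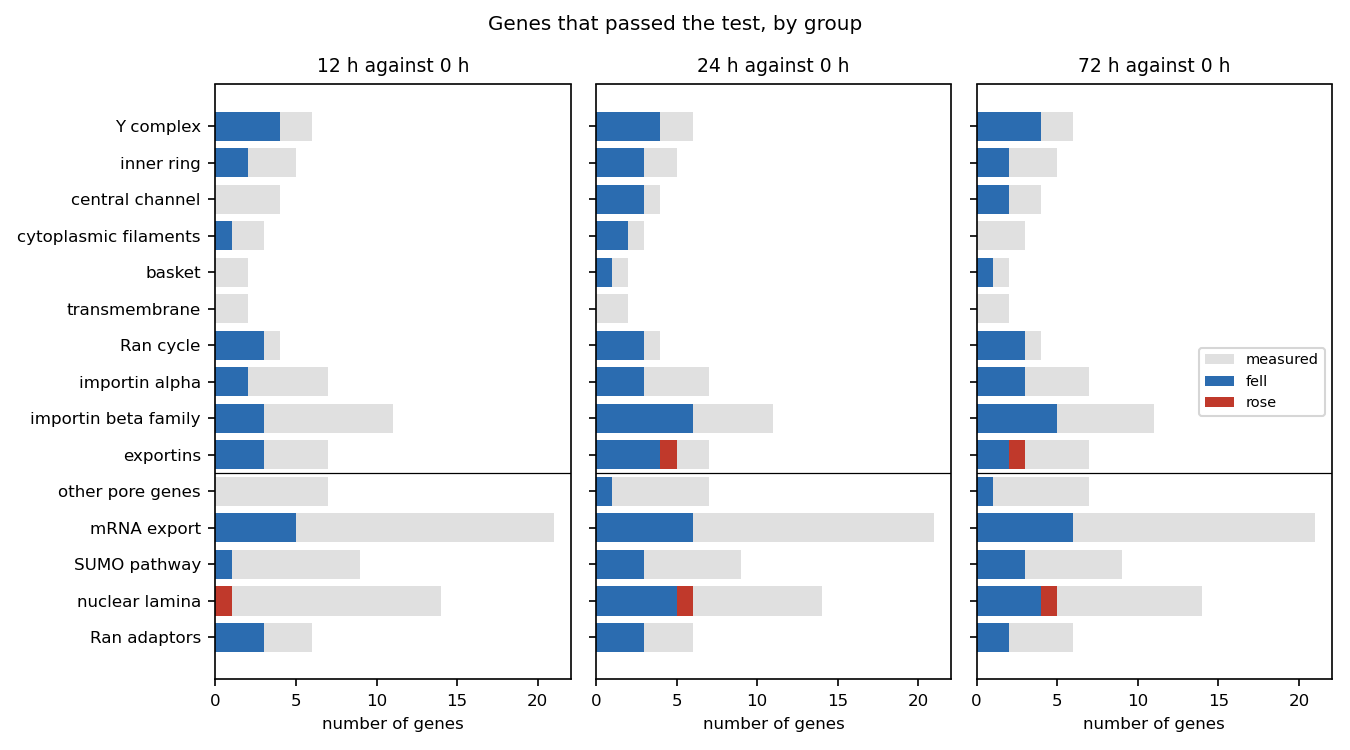
Number of genes that fell (blue) or rose (red) with masitinib at 12, 24 and 72 h against 0 h, on top of the number measured (grey), for the role groups of the 52 genes above the line and for related lists below it. By limma, Y complex and Ran cycle genes have 4 of 6 and 3 of 4 fallen at each time, and the transmembrane nucleoporins have no called gene. By the analysis of variance, 2 Ran cycle genes fell at 12 h.

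Steps between the treated times were tested directly. Between 12 and 24 h, 9 of the 52 genes fell and 1 rose, where 3.10% of all named genes fell and 1.41% rose. The falls were those of NUP62CL (-1.33 ± 0.08, SE), NUP160 (-1.26 ± 0.08, SE), RCC1 (-1.15 ± 0.09, SE), IPO7 (-0.77 ± 0.10, SE), RANBP1 (-0.77 ± 0.06, SE), KPNA2 (-0.72), NUP205 (-0.66), NUP93 (-0.66) and NUP85 (-0.64). XPO5 rose by 1.35 ± 0.07 (SE) between the same times. Between 24 and 72 h, 2 genes rose and 1 fell, with 1.96% of all named genes risen and 1.81% fallen. NUP160 at 72 h was 1.65-fold above its 24 h level (0.72 ± 0.08, SE, adjusted p = 3.62e-05) and IPO4, which imports histones and ribosomal proteins, was 1.53-fold above (0.61 ± 0.06, SE, adjusted p = 1.82e-05). IPO4 had values of 9.02, 9.03 and 9.05 at 72 h and 8.50, 8.37 and 8.39 at 24 h. Both rises depended on the probe set, since the mean of the 2 probe sets of each gene gave 0.47 for NUP160 and 0.34 for IPO4. NUP62CL fell by a further 1.21 on the log2 scale, with 6.02, 5.88 and 5.97 at 72 h and 7.31, 7.00 and 7.21 at 24 h. Scaled to the poly-A controls, 17 genes fell and 1 rose between 12 and 24 h (7.09% of all named genes fell), and 5 genes rose and 1 fell between 24 and 72 h (2.92% and 1.06% of all named genes). The median step of the 52 genes was -0.19 between 12 and 24 h and 0.12 between 24 and 72 h, beside 0.03 and -0.00 over all named genes. The arrays of the later and the earlier time did not overlap for 33 and 32 genes, and for 37.0% and 35.1% of all named genes.

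**Figure D4:**
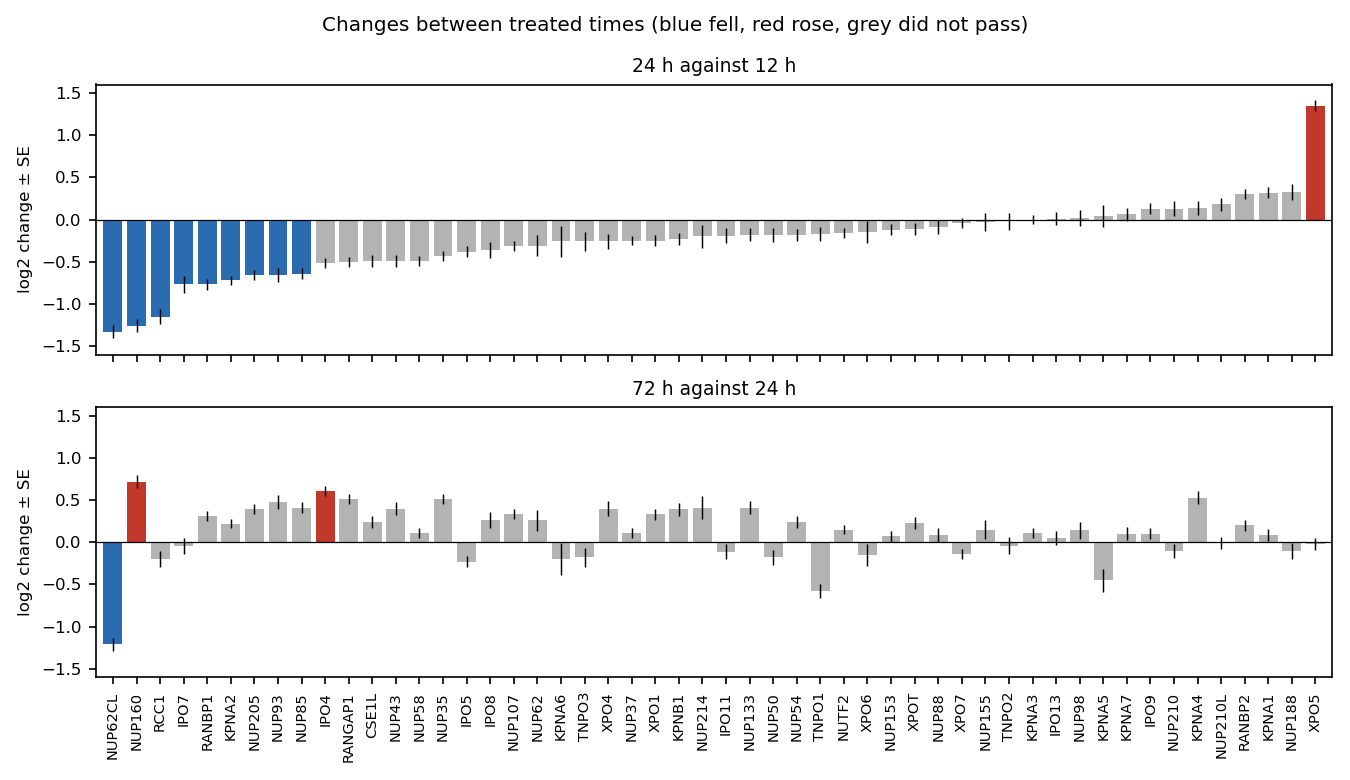
Log2 change ± SE of each of the 52 genes at 24 h against 12 h (upper panel) and at 72 h against 24 h (lower panel), in the same gene order, with falls in blue, rises in red and changes that did not pass in grey. In the upper panel 9 genes fall and XPO5 rises by 1.35, and in the lower panel NUP160 and IPO4 rise and NUP62CL falls by 1.21.

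For the 33 genes with several probe sets, no gene had probe sets called in opposite directions in any of the 5 comparisons. Signs still differed between probe sets of a gene, as in RANGAP1 at 24 h (-1.48 and 0.20) and NUP214 (-0.93 and 0.09), where the positive ones did not pass. At 24 h, 25 of the 33 had 1 or more probe sets that fell, and in 10 of them all probe sets fell. Of all 118 probe sets, 60 fell and 1 rose at 24 h, and 102 were below 0. Over the brightest probe sets of the 15115 named genes, 10.0% fell, 8.01% rose and 6702 were below 0 at 24 h. No such share is given here for all genes with several probe sets. Dim probe sets changed less. The median 24 h change was -0.18 in the 22 probe sets with a mean under 5, -0.47 in the 28 between 5 and 7, -0.74 in the 32 between 7 and 9 and -0.95 in the 36 at 9 and over.

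**Figure D5:**
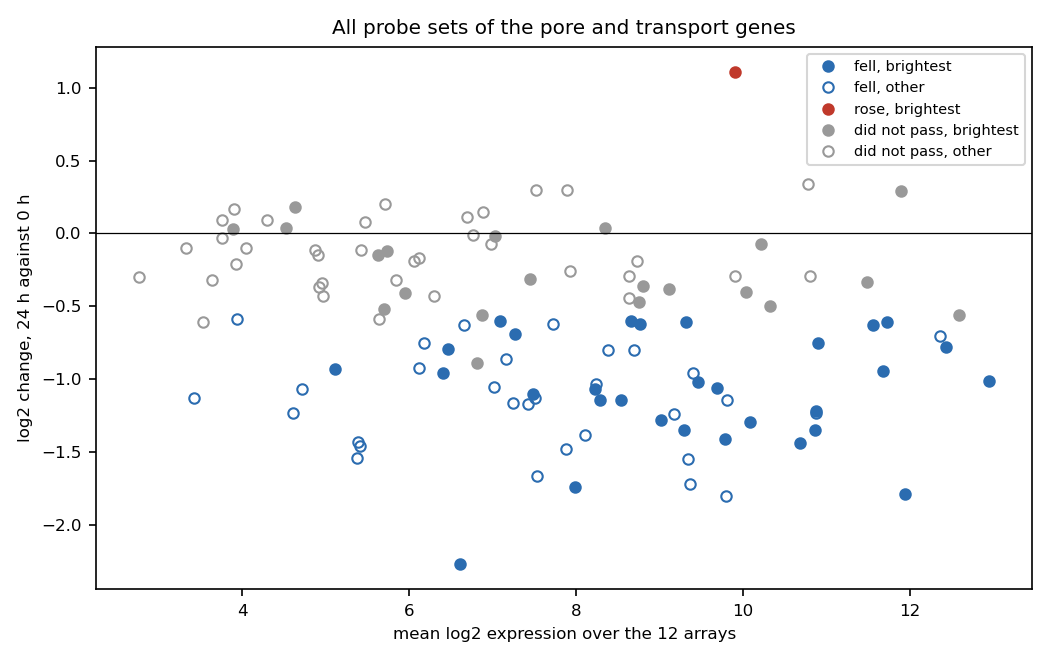
Log2 change at 24 h against 0 h of each of the 118 probe sets of the 52 genes, by its mean log2 expression over the 12 arrays, with filled points for the brightest probe set of a gene and open points for the others. Probe sets that fell (60, blue) lie at all levels, and the median change is -0.18 under a mean of 5 and -0.95 at 9 and over.

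Genes that work beside these were read from lists of related functions, and their counts stand beside falls of 6.30%, 10.0% and 11.0% and rises of 4.26%, 8.01% and 8.73% of all named genes at 12, 24 and 72 h. Of 7 pore genes with other names, none fell at 12 h by limma or the analysis of variance (4 at an unadjusted p under 0.05), and 1 fell at each later time. These were AAAS at 24 h (-0.60), chosen after its value was seen, and RAE1, an mRNA export factor at the pore, at 72 h (-0.77 ± 0.06, SE). Among 21 mRNA export genes 5, 6 and 6 fell at 12, 24 and 72 h and none rose by limma or the analysis of variance, with 0, 3 and 2 higher at an unadjusted p under 0.05. At that threshold 2987, 3862 and 3834 of the 15115 named genes were higher at these times. DDX39A, a helicase of the mRNA export machinery, had 12.33, 12.34 and 12.33 at 0 h, 11.70, 11.72 and 11.73 at 12 h, 10.96, 10.99 and 10.95 at 24 h and 10.64, 10.64 and 10.64 at 72 h, a fall of 1.69 on the log2 scale at 72 h. ALYREF, the adaptor that hands mRNA to the export receptor, was lower by a change of -1.19 ± 0.06 (SE) at 72 h.
Of 9 genes of the SUMO pathway, which modifies RANGAP1 at the pore, 1, 3 and 3 fell, with UBA2 (-0.92), PIAS2 (-0.86) and SAE1 (-0.82) at 72 h. In the nuclear lamina and inner membrane list of 14 genes, 0, 5 and 4 fell at 12, 24 and 72 h by limma and by the analysis of variance 0, 5 and 3, while 2 were lower at 12 h at an unadjusted p under 0.05. TMPO, a lamina-binding protein, changed by -2.72 ± 0.32 (SE) and LMNB1, lamin B1, by -2.07 ± 0.16 (SE) at 72 h. SYNE1, which links the nuclear envelope to the cytoskeleton, rose by 0.92, 0.92 and 1.06. Of 6 other Ran-binding and adaptor genes, 3, 3 and 2 fell, among them NMD3, the export adaptor of the large ribosomal subunit (-1.35, -1.34 and -1.16), and SNUPN, the import adaptor of spliceosomal ribonucleoproteins (-0.76, -0.94 and -1.10).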

How the data were processed

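The authors hybridised RNA of C2 cells to Affymetrix Canine Genome 2.0 arrays and processed the scans in Partek with the gcRMA workflow (RMA background correction, quantile normalization, median polish). What they deposited is 1 log2 expression value for each probe set on each array. They are not counts, so that depth does not apply and the 3 arrays per time limit the precision. Of 43035 probe sets, 111 Affymetrix controls were left out and 42924 were tested. Probe sets were named through the platform's gene table: 29254 carried 1 symbol, 439 several and 13231 none, and only the first were used by name, so that further KPNA2 probe sets with several symbols were not used. RAN is not analysed here.

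limma 3.58.1 in R 4.3.3 was fitted with 1 coefficient per time over all 12 arrays, and p-values were adjusted by Benjamini-Hochberg over the 42924 probe sets. The thresholds of the methods were kept, with 0.001 for the adjusted p and 1.5 for the fold change. On simulated data with 100 probe sets of each fold size, 84% of 2-fold and 100% of 4-fold changes at 72 h against 0 h were called. There were 0 false calls among the unchanged probe sets, and 0 calls in a run of 42924 probe sets without any change. The simulated noise was independent between arrays. The 0 therefore says nothing about false calls from an effect that the arrays of a time share. Pairs of arrays with the same replicate number had correlations of their deviations from the group means between -0.329 and 0.411 (median -0.0558). Pairs with different numbers had -0.455 to 0.461 (median -0.00299), and the numbers were not used as pairs.

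The genes and lists were chosen with earlier results of these data known. Values were given for the Ran cycle genes, KPNB1, KPNA2, XPO1 and CSE1L, for the largest called changes at 72 h, at 12 h and between treated times, for the lowest and highest change at 72 h in each role group, and for up to 3 called genes of each related list. No sequence of these genes was used here. Alternatives tried were a filter on the dimmest 40% of probe sets, median, cyclic loess and poly-A scaling (42 control probe sets), other rules for the probe set and threshold, the methods' analysis of variance with q-values, fits of only the times compared, a replicate block, symbols updated by Entrez identifier, and leaving out each array. Scaling to the 36 poly-A probe sets other than those of Trp was added after seeing the data.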

Additional observations from a re-analysis of the deposited data

Results flagged for a closer look

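The 24 h change against 0 h differed from the 12 h change in 10 genes, by a direct test of the later against the earlier time with limma. The difference was -1.33 for NUP62CL, -1.26 for NUP160, -1.15 for RCC1, -0.77 for IPO7, -0.77 for RANBP1, -0.72 for KPNA2, -0.66 for NUP205, -0.66 for NUP93, -0.64 for NUP85 and 1.35 for XPO5, all on the log2 scale. The 72 h change differed from the 24 h change in 3 genes, with 0.72 for NUP160, 0.61 for IPO4 and -1.21 for NUP62CL. NUP160 is in both sets with opposite signs and NUP62CL in both with the same sign. In NUP205 and NUP85 the 24 h difference from 12 h was -0.38 and -0.33 with the mean of all probe sets, and it no longer passed.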

How the results depend on the processing

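No value changed its direction with a call under any alternative. Scaling to the poly-A controls gave 33 called genes at 12 h against 0 h, 42 at 72 h against 0 h, 18 at 24 h against 12 h and 6 at 72 h against 24 h. The medians were -0.67, -1.14, -0.93, -0.46 and 0.25 in the 5 comparisons. The controls read higher on the treated arrays than at 0 h, so this scaling lowered the treated values. From 24 to 72 h the controls changed by -0.12, so that it raised this step. Leaving out the Trp controls, a choice made after seeing the data, gave 33, 44, 19 and 6 called genes in the same 4 comparisons and medians of -0.73, -1.23, -1.01, -0.50 and 0.26 in the 5, and the rise of XPO5 at 24 h (0.51) no longer passed. Without the dimmest 40% of probe sets the medians were -0.48 at 12 h against 0 h and -0.24 at 24 h against 12 h. With no fold threshold 16 genes were called at 24 h against 12 h and 10 at 72 h against 24 h. With the probe set of largest change the medians were -0.59, -0.80 and -0.69 at 12, 24 and 72 h against 0 h and -0.26 at 24 h against 12 h. With the mean of all probe sets they were -0.38 at 12 h and -0.49 at 72 h, and 1 gene was called at 72 h against 24 h. The cause of these shifts was not tested. Leaving out each array in turn, the called genes numbered 16 to 20, 28 to 32, 21 to 25, 10 and 3 to 4, and the medians lay between -0.49 and -0.43, -0.67 and -0.61, -0.57 and -0.52, -0.24 and -0.18, and 0.11 and 0.16. With a replicate block, 19, 31, 23, 10 and 3 genes were called. Among single genes the 12 h falls of NUP205 (-0.35), NUP85 (-0.42), XPO4 (-0.58) and KPNB1 (-0.56) and the 72 h falls of NUP205 (-0.55), NUP85 (-0.56), XPO4 (-0.47) and IPO4 (-0.51) fell short of the fold threshold with the mean of all probe sets, and the rise of NUP160 at 72 h against 24 h (0.72) had an adjusted p of 0.00136 when only those arrays were fitted. The fall of IPO7 at 24 h against 12 h (-0.77) had an adjusted p of 0.00101 in such a fit. No detection calls were used, so the signal over background of the dimmest genes is not known, and the 4 in the dimmest 40% of probe sets (KPNA7, NUP210, NUP210L and NUP214) drop out under that filter.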
